A study of Mus musculus with 26 samples.

Results

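The 24 h response to differentiation medium was examined in C2C12 cells transfected with siSMYD3#1, a small interfering RNA (siRNA) designed against Smyd3. It was read from 3 RNA-Seq libraries labelled siSMYD3#1 at 24 h and 3 at 0 h, chosen by their treatment and time labels, which are 6 of the 26 libraries of the series. C2C12 is an immortalised mouse myoblast line that withdraws from the cell cycle, switches on muscle genes and fuses into myotubes when growth medium is replaced by differentiation medium, and 0 h is the confluent culture at that change of medium. The reference response came from 6 libraries of siCtrl, a control siRNA, and the response of 6 libraries of siSMYD3#2, a second siRNA against Smyd3, is given beside it. The labels name no other treatment or genetic change in these 18 libraries than the siRNA, transfected 24 h before differentiation began and, by the study's methods, again at its start, so that a transient siRNA in 1 cell line is the model. The 8 libraries of SMYD3 overexpressing and vector cells were not used. RNA came from whole cultures, in which fused and single cells are mixed, so that fewer cells of a kind and less RNA per cell cannot be told apart. In each of the 4 groups of siCtrl and siSMYD3#1, RNA of replicate 1 was extracted with TRIzol and RNA of replicates 2 and 3 with the NucleoSpin kit. Values of single libraries are given below in that order, TRIzol first, and extraction was a term of the model.

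Total counts were 14315193 to 32165613 in the libraries labelled siSMYD3#1 and 15333299 to 60398170 in siCtrl, and 15820 of 55341 genes had enough counts to be tested. Levels are CPM, gene counts scaled to TMM-adjusted library totals, and changes are log2 fold changes with their standard error (SE) from 1 edgeR model over the 18 libraries. A gene was called when its p-value, adjusted by the Benjamini-Hochberg method over all genes tested, was under 0.01. The study's methods call the replicates biological, the TRIzol replicate came from another culture passage than the NucleoSpin replicates, and p-values measure the spread between these libraries. Sampling of reads sets the error of a single CPM value, and PCR copies were not told apart.

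Muscle differentiation proceeds in steps. Id proteins and other inhibitors hold MyoD family factors in check in dividing myoblasts. Their loss and the exit from the cell cycle precede the induction of myogenin (Myog), which with MyoD and MEF2 factors binds E-boxes and MEF2 sites in front of genes for sarcomere proteins, calcium handling and the synapse, while myomaker (Mymk) and myomixer (Mymx) fuse the cells. SMYD3 is a lysine methyltransferase of the SMYD family, of which SMYD1 is the muscle member.

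The guide strand of siSMYD3#1, the control duplex and the stretch of Smyd3 transcript that siSMYD3#1 matches are shown because they define the conditions compared. Overhangs are left out, capitals in the antisense strands mark the seed (bases 2 to 8), and capitals in the transcript mark the matched bases.
siSMYD3#1 sense: ucacagcugugaccccaac
siSMYD3#1 antisense: gUUGGGGUcacagcuguga
siCtrl sense: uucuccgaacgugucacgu
siCtrl antisense: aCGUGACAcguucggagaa
Smyd3 transcript: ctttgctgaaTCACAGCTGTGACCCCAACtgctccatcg
The matched bases are at chr1:179092935-179092953 on the minus strand of GRCm38, within Smyd3 (178951960 to 179518041 of chromosome 1). They lie in coding sequence of exon 7 of transcript Smyd3-204, and 3 of the 7 annotated Smyd3 transcripts contain them in full. The siCtrl sense strand matched 0 of the 7.

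Smyd3 RNA was checked first. It stood at 19, 19.3 and 16.9 CPM at 0 h and 19.3, 15.2 and 15.1 CPM at 24 h in the libraries labelled siSMYD3#1. In siCtrl the levels were 21.6, 20.5 and 19.5 CPM at 0 h and 20.7, 17.8 and 19.9 CPM at 24 h. The 2 sets of levels overlapped at 24 h but not at 0 h, and in 6 of 6 pairs of libraries with the same time and replicate number the siSMYD3#1 level was the lower one. At 24 h the log2 difference of siSMYD3#1 against siCtrl, -0.24 ± 0.16 (SE, adjusted p = 0.414), did not pass the test, nor did the difference of -0.16 ± 0.16 (SE, adjusted p = 0.785) at 0 h, and in the fit blocked by replicate number the adjusted p-values were 0.442 and 0.805. In siSMYD3#2 the 6 libraries ranged from 5.37 to 9.65 CPM, below every library of the other 2 siRNAs. Gene counts pool all transcripts of Smyd3, and by the test these counts alone do not show a lower Smyd3 RNA level in the libraries labelled siSMYD3#1, to which that name refers throughout. The study also measured Smyd3 mRNA by qPCR and SMYD3 protein by western blot after siRNA transfection. Those separate measures of the knockdown were not examined here. Across time Smyd3 changed by -0.16 ± 0.16 (SE, adjusted p = 0.464) under siSMYD3#1. Of the 5 SMYD family genes, Smyd4 (-0.41 ± 0.11 (SE, adjusted p = 0.00875)) and Smyd5 (-0.49 ± 0.10 (SE, adjusted p = 9.45e-04)) fell, and in the fit blocked by replicate number Smyd4 missed the threshold with an adjusted p of 0.0111. In each of the 2 conditions 2 of the 5 fell (40%), against 12.7% of all genes under siSMYD3#1 and 14.8% in siCtrl. The differences of the responses of Smyd4 (-0.09) and Smyd5 (0.15) were not called. Smyd1, the muscle methyltransferase that helps to assemble sarcomeres, changed by 1.21 ± 0.60 (SE, adjusted p = 0.131) under siSMYD3#1 and rose by 2.67 ± 0.60 (SE, adjusted p = 0.00322) in siCtrl.

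Most of the 24 h response occurred under siSMYD3#1. Genes picked for a large induction in siCtrl were on median induced less under siSMYD3#1, which such picking alone tends to produce. Genes picked for a large rise under siSMYD3#1 instead showed no such deficit on median. Between 0 h and 24 h, 4016 genes (25.4% of those tested) were called under siSMYD3#1, of which 2012 rose (12.7%) and 2004 fell (12.7%). In siCtrl 2309 genes rose (14.6%) and 2346 fell (14.8%). Of the siCtrl rises, 1480 (64.1%) were also called as rises under siSMYD3#1 and 2274 (98.5%) had the same sign. Of the siCtrl falls, 1663 (70.9%) were called as falls and 2318 (98.8%) had the same sign. Only Nav2, a cytoskeletal guidance protein, was called in opposite directions, with a fall of -0.44 under siSMYD3#1 and a rise of 0.47 in siCtrl, and the difference itself was not called (-0.91 ± 0.17 (SE, adjusted p = 0.0134)). Nav2 shares exon bases with another gene on its strand, so that its counts are uncertain. Across all genes tested the log2 changes of the 2 responses had a Pearson correlation of 0.81 and a Spearman correlation of 0.80, which describes genes and not independent replicates. The siCtrl and siSMYD3#1 responses share no library.

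A difference between the responses was tested gene by gene, as the change under siSMYD3#1 minus the change in siCtrl. It was called for 34 genes, 27 with a lower (0.171%) and 7 with a higher (0.0442%) change under siSMYD3#1. At an unadjusted p under 0.05 there were 1388. Of the genes called in both responses in the same direction, 3120 (1460 rises and 1660 falls) had no called difference. The 95% interval of the difference lay within a doubling either way for 1045 (71.6%) of those rises and 1550 (93.4%) of those falls, against 10330 (65.3%) of all genes tested. Those genes were picked in part for having no called difference, which raises their shares. The excess over all genes therefore does not show that the responses are equal. Another 22 siCtrl responses were called under siSMYD3#1 but smaller by the test of the difference, 9 were not called under siSMYD3#1 and differed, and 1 was larger. A further 1502 siCtrl responses, 822 rises and 680 falls, were not called under siSMYD3#1 and did not differ either, so that the data do not decide between presence and absence for them. Leaving out 1 library at a time gave 17 to 78 called differences, with 78 without the TRIzol library of siCtrl at 24 h and 17 to 21 without any one 0 h library, without replicate 2 of siCtrl at 24 h or without replicate 3 of siSMYD3#1 at 24 h. The count of 4016 became 2660 without replicate 2 of siSMYD3#1 at 0 h, and 2649 and 2676 without its replicates 2 and 3 at 24 h.

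Among genes picked by their siCtrl induction, the size of the difference went with the size of that induction. Among 1046 genes that rose by at least a doubling in siCtrl, the median log2 change was 1.74 in siCtrl and 1.30 under siSMYD3#1, and 841 (80.4%) rose less under siSMYD3#1. The 631 genes induced by 1 to 2 log2 in siCtrl had medians of 1.37 and 1.07. The 316 induced by 2 to 4 log2 had medians of 2.55 and 1.75, and the 99 induced by more than 4 log2 had medians of 5.30 and 3.24. Differences were called for 3, 7 and 14 genes of these 3 ranges, in which the median SE of the difference was 0.34, 0.67 and 1.05. Among 534 genes that at least halved in siCtrl the medians were −1.27 and −1.02. Genes picked for a large siCtrl value tend to have a smaller value elsewhere for that reason alone. Picked by their change under siSMYD3#1 instead, 774 rises had a median of 1.6 under siSMYD3#1 and 1.55 in siCtrl, and 343 falls had −1.27 in both.

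**Figure D1:**
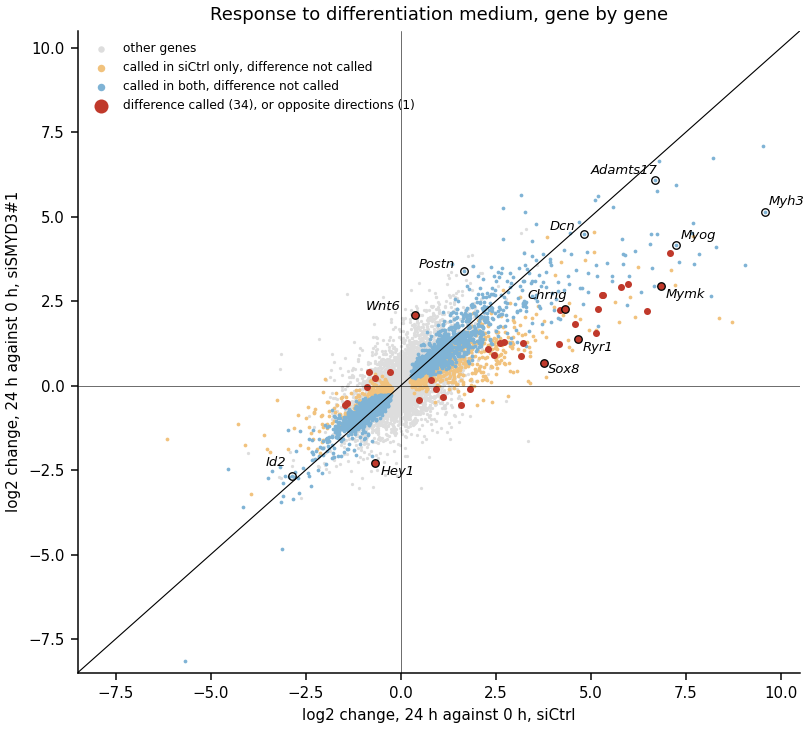
Each point is 1 of 15820 genes tested, with its log2 change from 0 h to 24 h in siCtrl on the horizontal axis and under siSMYD3#1 on the vertical axis, and the line marks equal change. Falls lie along the line down to Id2, while Myog, Myh3, Mymk, Ryr1 and Sox8 lie far below it and Wnt6 above it.

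Inhibitors of MyoD family factors moved in both directions. Of 15 tested members of the list 4 fell (26.7%) and 3 rose (20%) under siSMYD3#1, against 12.7% of all genes each way, with a median of 0.36. In siCtrl 5 fell and 7 rose, with a median of 0.54. The genes that fell under siSMYD3#1 were Id1, Id2 and Id3, which bind the partners of MyoD, and Hey1, a Notch target and repressor. Those that rose were Zeb1 (1.40 ± 0.14) and Snai2 (0.75 ± 0.12), zinc-finger repressors that bind E-boxes, and the repressor Bhlhe40 (0.85 ± 0.16). These 3 were chosen after their values were seen. Id2 went from 50, 23.7 and 27.4 CPM at 0 h to 9.9, 3.37 and 3.47 CPM at 24 h, and in siCtrl from 69.5, 37.7 and 31.5 CPM to 11.9, 3.55 and 4.7 CPM. No library at 24 h overlapped those at 0 h in either condition. The log2 change of Id2 was -2.67 ± 0.17 (SE, adjusted p = 1.12e-08) under siSMYD3#1 and -2.86 ± 0.17 in siCtrl, and the difference of 0.19 ± 0.23 was not called. The change of Id3 was -2.74 ± 0.46 under siSMYD3#1 and -2.69 ± 0.46 in siCtrl, and that of Id1 was -1.55 ± 0.26 and -1.58 ± 0.26. Hey1 fell further under siSMYD3#1 than in siCtrl. Its level went from 33.8, 28.9 and 34.8 CPM to 5.49, 7.51 and 7 CPM under siSMYD3#1 and from 28, 32.8 and 34 CPM to 21.4, 16.5 and 20.4 CPM in siCtrl. The 24 h levels of the 2 conditions did not overlap, and the difference of the responses was -1.61 ± 0.22 (SE, adjusted p = 0.001). Heyl, a relative of Hey1, rose in siCtrl (2.17 ± 0.39 (SE, adjusted p = 3.13e-04)) and changed by 0.39 ± 0.40 (SE, adjusted p = 0.47) under siSMYD3#1, with no called difference.

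Cell cycle genes fell together. All but 3 of the 45 tested DNA replication genes fell, 42 under siSMYD3#1 and 42 in siCtrl, against 12.7% and 14.8% of all genes, with medians of −1.10 and −1.23. The difference was called for 0 of them, and for 42 its 95% interval lay within a doubling either way. Cdc6, which loads the replicative helicase, went from 56.9, 49.7 and 48.8 CPM to 20.7, 12 and 5.38 CPM under siSMYD3#1 and from 70.1, 48.3 and 51.6 CPM to 14, 12.1 and 14.5 CPM in siCtrl. All 24 h libraries were below all 0 h libraries, and the change was -2.04 ± 0.25 (SE, adjusted p = 1.79e-05) under siSMYD3#1 and -2.06 ± 0.25 in siCtrl. Cyclin E2 (Ccne2) changed by -2.08 ± 0.28 and -2.14 ± 0.28, and Mcm10, an initiation factor, by -1.55 ± 0.13 and -1.95 ± 0.14. Of 50 mitosis genes, 42 fell under siSMYD3#1 (median −0.62) and 47 in siCtrl (median −0.93). At 24 h 6 of the 50 were higher under siSMYD3#1 than in siCtrl, against 2.91% of all genes. Cyclin B1 (Ccnb1), which drives entry into mitosis, went from 165, 254 and 223 CPM to 109, 128 and 132 CPM under siSMYD3#1 and from 182, 270.0 and 276 CPM to 87.9, 97.5 and 111 CPM in siCtrl. Every 24 h library was below every 0 h library in both, and the 24 h levels of the 2 conditions overlapped. The difference of 0.49 ± 0.14 (SE, adjusted p = 0.172) was not called. Over all libraries, 44 of the 45 replication genes and 48 of the 50 mitosis genes changed less under siSMYD3#1. Within extraction, the replication median was −0.62 in TRIzol and −1.35 in NucleoSpin under siSMYD3#1, and −1.15 and −1.31 in siCtrl. The mitosis median was −0.42 and −0.75 under siSMYD3#1, and −0.85 and −0.94 in siCtrl. In the fit of NucleoSpin libraries alone the median difference was close to 0 (−0.00755) for replication and 0.279 for mitosis.

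Among 18 tested D cyclins, CDK inhibitors and pocket proteins, 3 rose and 3 fell under siSMYD3#1 (16.7% each way, median 0.21), near the 12.7% of all genes. In siCtrl 7 rose (38.9%) and 3 fell (median 0.54). Cdkn1a (p21), the CDK inhibitor induced at cell cycle exit, went from 353, 240.0 and 256 CPM to 418, 469 and 435 CPM under siSMYD3#1 and from 322, 216 and 234 CPM to 596, 622 and 669 CPM in siCtrl. It rose in both (0.67 ± 0.14 (SE, adjusted p = 0.00118) and 1.32 ± 0.14 (SE, adjusted p = 1.22e-06)), and the difference of -0.65 ± 0.20 was not called. Cdkn1c (p57) rose in siCtrl by 2.94 ± 0.49 (SE, adjusted p = 9.32e-05) and changed by 1.23 ± 0.60 (SE, adjusted p = 0.116) under siSMYD3#1. Cyclin D1 (Ccnd1) fell in both, from 310.0, 314 and 314 CPM to 119, 149 and 108 CPM under siSMYD3#1 (-1.32 ± 0.20 (SE, adjusted p = 1.57e-04)). Cyclin D3 (Ccnd3), the D cyclin that goes up in differentiating muscle cells, stayed between 144 and 172 CPM in all 6 siSMYD3#1 libraries (-0.05 ± 0.10 (SE, adjusted p = 0.736)) and rose in siCtrl (0.65 ± 0.10 (SE, adjusted p = 5.59e-05)), with a difference of -0.70 ± 0.14 (SE, adjusted p = 0.0322). Ccnd1 and Ccnd3 were chosen after their values were seen.

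Among the MyoD and MEF2 factors, Myog was the gene with the largest change. It went from 0.135, 1.01 and 1.37 CPM to 5.64, 19.8 and 17.2 CPM under siSMYD3#1, and from 0.184, 1.1 and 1.87 CPM to 55.6, 222 and 262 CPM in siCtrl. Every 24 h library was above every 0 h library in both conditions, and every siSMYD3#1 library at 24 h was below every siCtrl library at 24 h. Myog rose by 4.15 ± 0.42 (SE, adjusted p = 6.25e-06) under siSMYD3#1 and by 7.25 ± 0.38 (SE, adjusted p = 8.45e-09) in siCtrl. The 24 h level differed (-3.59 ± 0.30 (SE, adjusted p = 5.40e-06)). The difference of the responses was -3.10 ± 0.65 (SE, adjusted p = 0.0471), with a 95% interval of -4.53 to -1.68, and was not called. It passed the threshold in 4 of 7 alternative settings, over which the adjusted p ranged from 7.78e-23 to 1. Myod1 was 4.67, 24.9 and 25.4 CPM at 0 h and 4.97, 17.6 and 17 CPM at 24 h, lowest in the TRIzol library at both times, and did not pass the test (-0.38 ± 0.29 (SE, adjusted p = 0.328)). Myf5 rose under siSMYD3#1 (0.42 ± 0.11 (SE, adjusted p = 0.00469)) and changed by 0.31 ± 0.11 (SE, adjusted p = 0.0228) in siCtrl. Mef2a rose by 0.88 ± 0.18 and Mef2d by 0.27 ± 0.08, against 1.57 ± 0.18 and 0.44 ± 0.08 in siCtrl, and in the blocked fit Mef2d missed the threshold (adjusted p 0.0119). Mef2c (0.85 ± 0.41 (SE, adjusted p = 0.111)) and Myf6 (0.88 ± 0.38 (SE, adjusted p = 0.0762)) did not pass. Of the 15 tested factors 4 rose (26.7%) and 0 fell under siSMYD3#1, against 5 (33.3%) and 1 in siCtrl. Of all genes 12.7% rose under siSMYD3#1 and 14.6% in siCtrl. Sox8, a transcription factor of the SoxE family, went from 1.49, 1.21 and 1.52 CPM to 2.02, 2.65 and 2.12 CPM under siSMYD3#1 and from 0.589, 1.06 and 1.39 CPM to 6.16, 18.2 and 20.4 CPM in siCtrl. Its rise was called in siCtrl only, and the difference of -3.09 ± 0.44 (SE, adjusted p = 0.0016) was called.

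**Figure D2:**
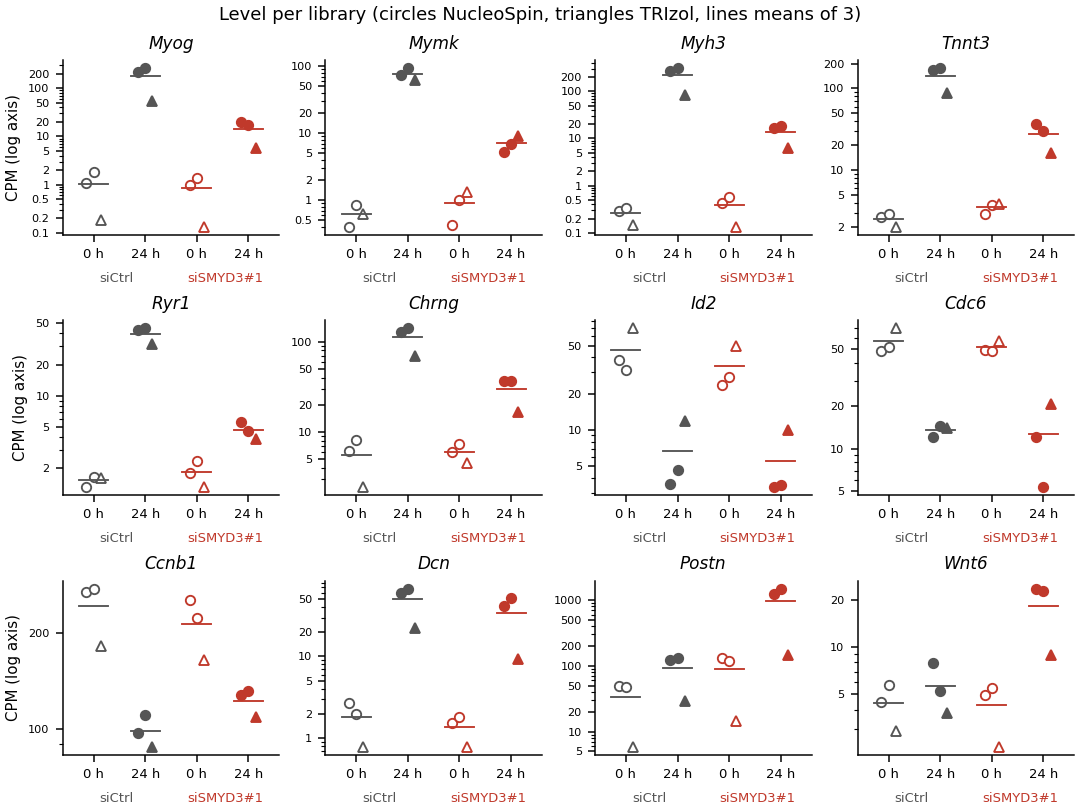
Levels of 12 genes in CPM on log axes, 1 point per library at 0 h and 24 h of siCtrl and siSMYD3#1, with triangles for TRIzol, circles for NucleoSpin and lines for the mean of 3 libraries. Id2 and Cdc6 fall to similar levels in both conditions, Myog, Mymk, Myh3, Tnnt3, Ryr1 and Chrng rise less under siSMYD3#1, and Postn and Wnt6 end higher.

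Thick filament genes were induced under siSMYD3#1 but ended far below siCtrl. Of 17 tested of 24 listed, 7 rose under siSMYD3#1 (median 1.89) and 14 in siCtrl (median 4.29), against 12.7% and 14.6% of all genes, and the medians of all genes were 0.021 and 0.027. At 24 h 11 of the 17 were lower under siSMYD3#1 than in siCtrl, against 2.94% of all genes. With NucleoSpin libraries alone 12 members rose under siSMYD3#1, with a median of 2.34. Embryonic myosin heavy chain (Myh3) went from 0.135, 0.428 and 0.578 CPM to 6.22, 16.3 and 18.2 CPM under siSMYD3#1, and from 0.147, 0.293 and 0.343 CPM to 83.2, 269 and 311 CPM in siCtrl. Its 24 h levels did not overlap between the conditions, the lowest siCtrl library being the TRIzol library at 83.2 CPM. Myh3 rose by 5.14 ± 0.56 (SE, adjusted p = 1.46e-05) and 9.57 ± 0.53 (SE, adjusted p = 2.29e-08), and its difference of -4.43 ± 1.14 (SE, adjusted p = 0.136) was not called, with a 95% interval of -6.93 to -1.93. The light chain Myl1 rose by 4.50 ± 0.33 under siSMYD3#1 and 6.59 ± 0.30 in siCtrl. The fast regulatory light chain Mylpf went from 1.25, 1.44 and 1.84 CPM to 17.3, 25.3 and 26.9 CPM under siSMYD3#1 and from 1.03, 2.45 and 2.38 CPM to 154, 297 and 372 CPM in siCtrl. It was the one member of the list with a called difference (-3.15 ± 0.48 (SE, adjusted p = 0.00698)).

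Thin filament and Z-disc genes behaved likewise, with 15 of 27 tested (55.6%) rising under siSMYD3#1 (median 1.01) and 22 (81.5%) in siCtrl (median 2.27). Of all genes 12.7% and 14.6% rose. At 24 h 10 were lower under siSMYD3#1, against 2.94% of all genes. Fast troponin T (Tnnt3), the subunit that ties the troponin complex to tropomyosin, went from 3.86, 2.88 and 3.73 CPM to 16.4, 36.4 and 30.5 CPM under siSMYD3#1 and from 2.02, 2.67 and 2.86 CPM to 87, 167 and 178 CPM in siCtrl. It rose in both (2.91 ± 0.22 and 5.80 ± 0.23), no 24 h library of one condition overlapped the other, and the difference was -2.89 ± 0.31 (SE, adjusted p = 2.45e-04). Other troponins with called differences were the calcium-binding Tnnc1 (-2.92 ± 0.42), the inhibitory subunit Tnni1 (-2.75 ± 0.41) and slow troponin T Tnnt1 (-1.93 ± 0.23). Cardiac alpha actin (Actc1), the main sarcomeric actin of early myotubes, rose by 4.82 ± 0.56 and 7.70 ± 0.51, and skeletal alpha actin (Acta1) by 3.67 ± 0.87 and 7.31 ± 0.90, and the differences of -2.89 ± 0.89 and -3.64 ± 1.24 were not called. Of 22 tested sarcomere assembly genes, 10 rose (45.5%) and 1 fell under siSMYD3#1 (median 1.18), against 15 (68.2%) and 0 in siCtrl (median 1.64). Klhl41, which stabilises nebulin and the thin filament, rose by 2.27 ± 0.32 and 5.18 ± 0.30, with a called difference (-2.91 ± 0.46 (SE, adjusted p = 0.004)). Trim54 (MuRF3), a ubiquitin ligase of the sarcomere, was 1.90 to 4.19 CPM in all 6 siSMYD3#1 libraries and rose in siCtrl from 2.65, 2.16 and 2.02 CPM to 6.47, 6.88 and 6.92 CPM. Its change under siSMYD3#1 of -0.57 ± 0.21 (SE, adjusted p = 0.0403) did not pass, and the difference did (-2.15 ± 0.29 (SE, adjusted p = 0.001)).

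Genes of excitation-contraction coupling held the most called differences of any list, 5 of 23 tested, all lower, against 0.171% of all genes. The lists were chosen with earlier results of these data known, so that this ranking is a description and no independent support. Under siSMYD3#1 13 rose (56.5%) and 1 fell (median 0.90), and in siCtrl 16 rose (69.6%) and 2 fell (median 2.18). Of all genes 12.7% and 14.6% rose. Ryr1, the calcium release channel of the sarcoplasmic reticulum, went from 1.32, 1.79 and 2.36 CPM to 3.86, 5.58 and 4.6 CPM under siSMYD3#1 and from 1.62, 1.32 and 1.65 CPM to 31.5, 42.6 and 44.7 CPM in siCtrl. Every 24 h library was above every 0 h library in both conditions, and the highest 24 h level under siSMYD3#1 was below the lowest in siCtrl. The rise was 1.39 ± 0.24 under siSMYD3#1 and 4.67 ± 0.23 in siCtrl, and the difference of -3.29 ± 0.33 (SE, adjusted p = 6.65e-05) was called in all 7 alternative settings. The others were the calcium pump Atp2a1 (2.67 ± 0.24 against 5.30 ± 0.24), calsequestrin Casq2 (1.57 ± 0.38 against 5.14 ± 0.36), the luminal calcium binder Srl (0.88 ± 0.24 against 3.17 ± 0.24) and the counter-ion channel Tmem38a (0.90 ± 0.14 against 2.45 ± 0.15). In the blocked fit the rise of Srl under siSMYD3#1 missed the threshold.

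Fusion genes rose in part. Of 18 tested 5 rose (27.8%) under siSMYD3#1 and 8 (44.4%) in siCtrl, against 12.7% and 14.6% of all genes, and 0 and 2 fell. The medians were 0.17 and 0.29. At 24 h 3 members were higher and 5 lower under siSMYD3#1 than in siCtrl, against 2.91% and 2.94% of all genes. Mymk, the membrane protein that makes myoblasts competent to fuse, went from 1.32, 0.428 and 0.998 CPM to 9.07, 5.29 and 6.93 CPM under siSMYD3#1 and from 0.626, 0.402 and 0.84 CPM to 61.5, 75.4 and 94.1 CPM in siCtrl. Every 24 h library was above 0 h, the highest siSMYD3#1 library at 24 h was below the lowest siCtrl library, and the difference was called (-3.91 ± 0.55 (SE, adjusted p = 0.00324)). Mymx, its partner micropeptide, rose by 3.90 ± 0.46 and 5.85 ± 0.39 with no called difference (-1.95 ± 0.71). Cdh15 (M-cadherin) changed by 0.59 ± 0.25 (SE, adjusted p = 0.0759) under siSMYD3#1 and rose by 1.31 ± 0.25 (SE, adjusted p = 8.42e-04) in siCtrl. Of 12 tested genes of the acetylcholine receptor and synapse, 4 rose (33.3%) under siSMYD3#1 and 7 (58.3%) in siCtrl (medians 0.53 and 1.52). Chrng, the receptor's fetal subunit, went from 4.53, 5.99 and 7.3 CPM to 16.6, 36.4 and 36.2 CPM under siSMYD3#1 and from 2.47, 6.18 and 8.25 CPM to 69.1, 128 and 140.0 CPM in siCtrl, and the difference was -2.07 ± 0.24 (SE, adjusted p = 2.45e-04). In the dystrophin complex 9 of 15 (60%) rose under siSMYD3#1 and 10 (66.7%) in siCtrl (medians 0.63 and 0.87). Lama2, a laminin chain that the complex binds, rose less under siSMYD3#1 (1.26 ± 0.15 against 2.61 ± 0.15, adjusted p of the difference 0.00324).

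Of 21 tested muscle energy genes 4 rose (19%) and 0 fell under siSMYD3#1, against 12.7% of all genes each way, and 7 rose (33.3%, against 14.6%) and 1 fell in siCtrl. Muscle creatine kinase (Ckm), which buffers ATP in fibres, was at 3 counts or fewer in every 0 h library of both conditions. It reached 1.96, 2.9 and 2.62 CPM at 24 h under siSMYD3#1 and 19, 41 and 48.8 CPM in siCtrl, at least 19.9-fold and at least 400-fold above a floor of 3 counts per library. The 24 h levels did not overlap and differed by -3.79 ± 0.25 (SE, adjusted p = 7.05e-08). The difference of the Ckm responses, -2.45 ± 2.4 (SE, adjusted p = 0.889), was not called, and it was called in 0 of 7 alternative settings. With Ckm at the floor at 0 h, the counts do not decide whether its induction was smaller under siSMYD3#1.

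**Figure D3:**
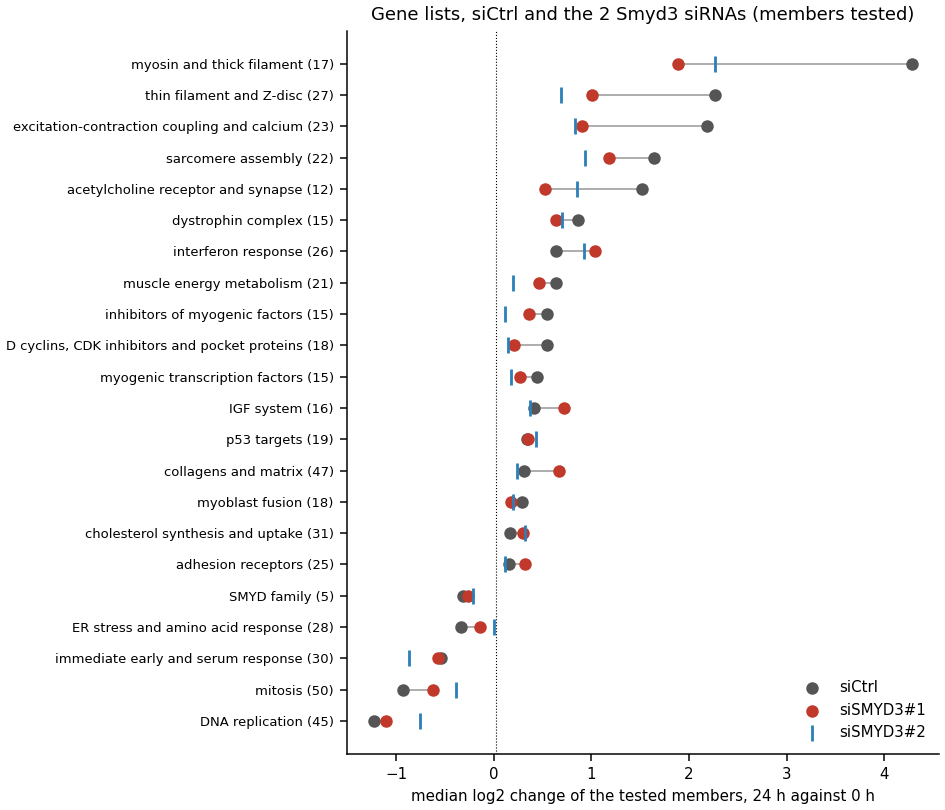
Median log2 change from 0 h to 24 h over the tested members of each gene list in siCtrl, siSMYD3#1 and siSMYD3#2, with the number tested beside each name and a dotted line at the median of all genes under siSMYD3#1. The lists of thick filament, thin filament and calcium handling genes have the widest gaps, with siCtrl at 4.29, 2.27 and 2.18 and siSMYD3#1 at 1.89, 1.01 and 0.90, while DNA replication lies at −1.23 and −1.10.

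Other lists rose as much or more under siSMYD3#1. Of 16 tested genes of the insulin-like growth factor (IGF) system, 10 rose (62.5%) under siSMYD3#1 and 8 (50%) in siCtrl (medians 0.72 and 0.41). Of all genes 12.7% and 14.6% rose. Igf1, a growth factor that promotes differentiation, went from 0.338, 0.195 and 0.42 CPM to 2.97, 3.7 and 4.17 CPM under siSMYD3#1 and from 0.479, 0.695 and 0.394 CPM to 2.5, 1.36 and 1.96 CPM in siCtrl, and the difference of 1.64 ± 0.50 (SE, adjusted p = 0.205) was not called. Igfbp5, an IGF binding protein of differentiating myoblasts, rose by 2.51 ± 0.39 and 3.59 ± 0.41. Its relative Igfbp4 rose only under siSMYD3#1 by the threshold (1.84 ± 0.35 (SE, adjusted p = 0.00109) against 0.05 ± 0.37 (SE, adjusted p = 0.933) in siCtrl), with a difference of 1.80 ± 0.51 (SE, adjusted p = 0.187). Igf2 had too few counts to be tested.

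Collagen and matrix genes had 26 rises (55.3%) and 2 falls among 47 tested under siSMYD3#1 (median 0.67), and 13 rises (27.7%) and 4 falls in siCtrl (median 0.31). Of all genes 12.7% rose under siSMYD3#1 and 14.6% in siCtrl. The difference of the responses was called for 0 of them, and at 24 h 20 were higher and 3 lower under siSMYD3#1 than in siCtrl, against 2.91% and 2.94% of all genes. At 0 h 4 were already higher and 1 lower, where 1.43% of all genes differed. The median level difference of the list was 0.33 at 0 h and 0.65 at 24 h, so that part of the gap preceded the change of medium. Decorin (Dcn), a small collagen-binding proteoglycan, was among the largest rises in both conditions, from 0.778, 1.52 and 1.79 CPM to 9.23, 41.8 and 52.4 CPM under siSMYD3#1 and from 0.773, 2.71 and 1.95 CPM to 22.4, 59.9 and 67.9 CPM in siCtrl. Its changes of 4.50 ± 0.24 and 4.83 ± 0.23 differed by -0.33 ± 0.34, which was not called. Periostin (Postn), a secreted adhesion protein, went from 14.6, 133 and 120.0 CPM to 144, 1230 and 1500 CPM under siSMYD3#1 and from 5.78, 49.5 and 46.9 CPM to 29.6, 123 and 130.0 CPM in siCtrl. Within each extraction Postn was higher under siSMYD3#1 at both times, and the TRIzol library was the lowest of each group. The 24 h difference was 3.08 ± 0.34 (SE, adjusted p = 7.33e-05) and the 0 h difference 1.36 ± 0.33 (SE, adjusted p = 0.0406), which was not called, nor was the difference of the responses (1.72 ± 0.46 (SE, adjusted p = 0.168)). Collagen I (Col1a1) went from 278, 452 and 468 CPM to 658, 1750 and 1390 CPM under siSMYD3#1 and from 150.0, 242 and 281 CPM to 280.0, 304 and 242 CPM in siCtrl, where it did not pass the test (1.63 ± 0.27 (SE, adjusted p = 4.18e-04) against 0.36 ± 0.27 (SE, adjusted p = 0.307)). Fibronectin (Fn1) rose in both (1.20 ± 0.15 and 0.55 ± 0.15). Col1a1 and Fn1 were chosen after their values were seen. The summed CPM of 6 fibroblast markers, of which Col1a1 is one and supplies most of the reads, moved with these genes from 288 to 477 at 0 h to 675 to 1770 at 24 h under siSMYD3#1, and from 154 to 289 to 255 to 317 in siCtrl. Of these markers 2 had at most 3 counts in all 6 siSMYD3#1 libraries, and their part in the result was not tested.

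Interferon response genes rose in 15 of 26 tested (57.7%) under siSMYD3#1 (median 1.04) and 9 of 26 (34.6%) in siCtrl (median 0.64), with 0 falls and 0 called differences. Of all genes 12.7% rose and 12.7% fell under siSMYD3#1, and 14.6% rose and 14.8% fell in siCtrl. Irf7, the factor that amplifies the interferon response, went from 0.643, 0.506 and 0.315 CPM to 2.36, 1.49 and 2.62 CPM under siSMYD3#1 (2.11 ± 0.34 (SE, adjusted p = 9.75e-05)) and changed by 1.08 ± 0.33 (SE, adjusted p = 0.0124) in siCtrl. These are low levels. Of 30 immediate early and serum response genes, 5 rose (16.7%) and 9 fell (30%) under siSMYD3#1 and 2 and 8 in siCtrl. The rises under siSMYD3#1 were near the share of all genes. With NucleoSpin libraries alone 6 rose and 20 fell under siSMYD3#1. Within extraction the median under siSMYD3#1 was −0.02 in TRIzol and −0.89 in NucleoSpin. Fosl1, an AP-1 subunit chosen after its values were seen, fell in both, from 102, 74.4 and 75.6 CPM to 29.5, 19.5 and 13.4 CPM under siSMYD3#1, as did Dusp5, a phosphatase of ERK (-2.02 ± 0.21 and -2.30 ± 0.22). Edn1 (endothelin), a secreted peptide, went from 4.84, 7.24 and 7.04 CPM to 14, 31 and 31.3 CPM under siSMYD3#1 and from 3.42, 5.27 and 4.17 CPM to 3.31, 4.56 and 2.55 CPM in siCtrl. All 24 h libraries of siSMYD3#1 were above its 0 h libraries, those of siCtrl overlapped, and the difference of 2.23 ± 0.41 (SE, adjusted p = 0.0184) was not called. Cholesterol genes had 3 rises of 31 (9.68%) under siSMYD3#1 and 2 (6.45%) in siCtrl, both below the shares of all genes, with 0 falls. Their median under siSMYD3#1 was 0.97 in TRIzol and −0.15 in NucleoSpin libraries, so that no direction is given. ER stress genes had 0 rises and 6 falls (21.4%) of 28 under siSMYD3#1 and 0 and 8 in siCtrl. With NucleoSpin libraries alone they had 8 rises and 8 falls under siSMYD3#1, and the median went from −0.137 to 0.0367. Of 19 p53 targets 6 rose (31.6%) and 2 fell under siSMYD3#1 and 7 and 3 in siCtrl. Of 25 adhesion receptors 7 rose (28%) and 3 fell (12%) in each condition, the falls near the share of all genes. Of the 10 receptors called in siCtrl, 6 were called the same way under siSMYD3#1.

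**Figure D4:**
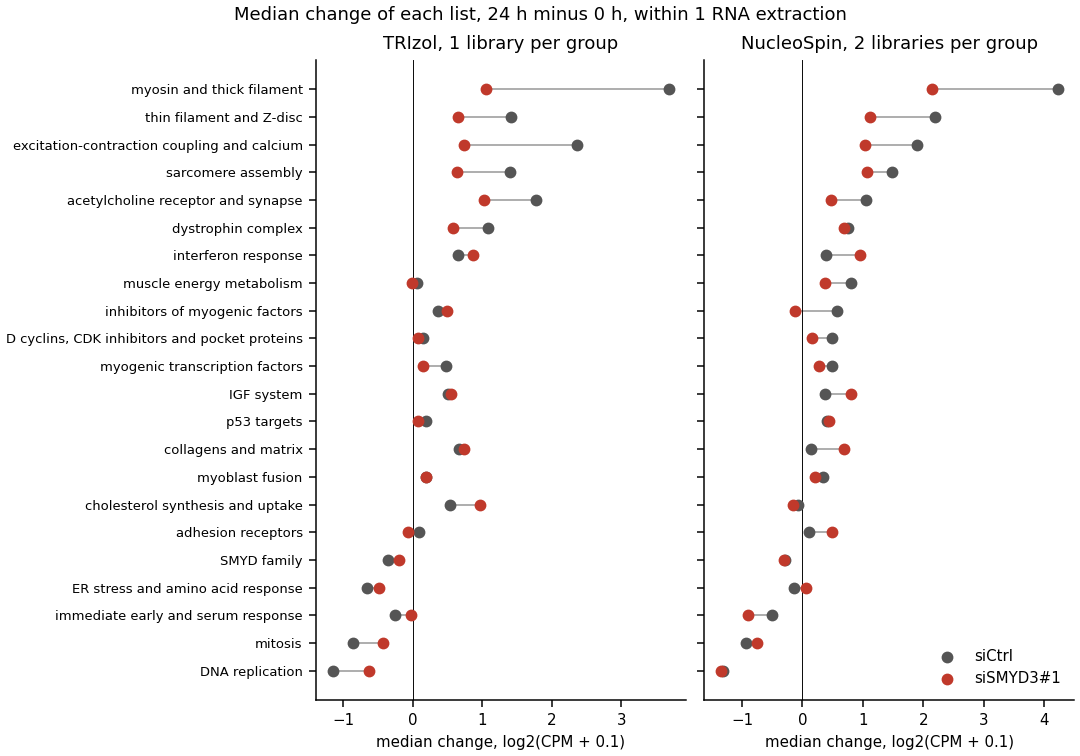
Median change of each list from 0 h to 24 h on the log2(CPM + 0.1) scale, within the TRIzol libraries (1 per group, left) and within the NucleoSpin libraries (2 per group, right), for siCtrl and siSMYD3#1. The gap of the thick filament list is present in both (1.06 against 3.69 in TRIzol, 2.14 against 4.22 in NucleoSpin), whereas the gap of the DNA replication list is seen in TRIzol only (−0.62 against −1.15, then −1.35 against −1.31).

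Some genes were called in one condition only, with a called difference. Beside Sox8 and Trim54, 4 siCtrl rises were not called under siSMYD3#1 and differed, those of Fmo1 (a drug-metabolising oxygenase), Ank1 (ankyrin), Pip4k2a (a phosphoinositide kinase) and Tgfb3 (a TGF-beta ligand). Ank1 went from 9.6, 15.3 and 13.6 CPM to 9.69, 11.4 and 8.28 CPM under siSMYD3#1 and from 14.2, 15.9 and 16 CPM to 22.9, 38.2 and 40.9 CPM in siCtrl. The 24 h levels did not overlap, and the difference was -1.46 ± 0.21 (SE, adjusted p = 0.00167). The siCtrl falls not called under siSMYD3#1 that differed were those of Fam131b, the lysyl oxidase relative Loxl4 and the kinase Nuak2. Fam131b was already lower at 0 h under siSMYD3#1, at 19.5, 19.5 and 22.5 CPM against 48.3, 41.3 and 46 CPM in siCtrl, and Tgfb3 was already higher (0.48 ± 0.08 (SE, adjusted p = 0.0017)). These were the 2 of the 34 genes that differed at 0 h, where 1.43% of all genes did, and the other 32 differed at 24 h. Wnt6, a secreted ligand of frizzled receptors, went from 2.3, 4.98 and 5.46 CPM to 8.89, 23.7 and 22.7 CPM under siSMYD3#1 and from 2.91, 4.5 and 5.76 CPM to 3.8, 7.98 and 5.22 CPM in siCtrl. Its 24 h levels under siSMYD3#1 were above its own 0 h levels in every library, and within each extraction above those of siCtrl. Wnt6 rose by 2.09 ± 0.18 (SE, adjusted p = 2.21e-07) under siSMYD3#1, changed by 0.38 ± 0.18 (SE, adjusted p = 0.0954) in siCtrl, and the difference of 1.71 ± 0.25 (SE, adjusted p = 0.00194) was called. Fhl2, a LIM-domain cofactor, rose by 0.40 ± 0.08 (SE, adjusted p = 8.84e-04) and changed by -0.27 ± 0.08 (SE, adjusted p = 0.0125) in siCtrl, with a called difference of 0.67 ± 0.12.

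**Figure D5:**
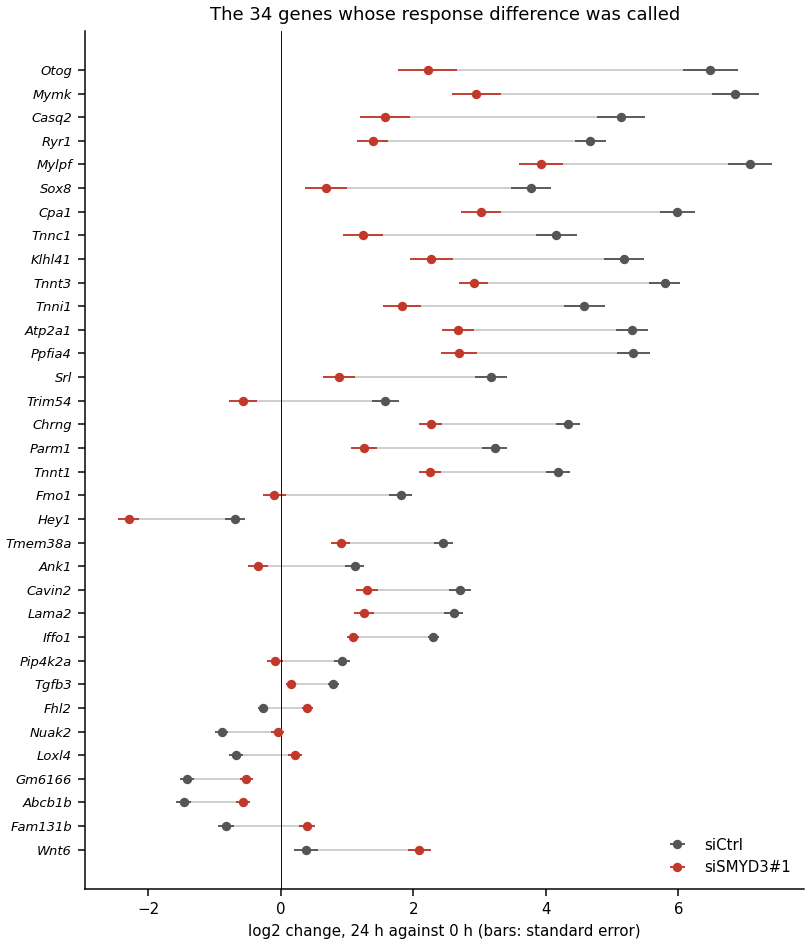
Log2 change from 0 h to 24 h with its SE for the 34 genes whose response differed between siSMYD3#1 and siCtrl, ordered by the difference. In 27 genes the siSMYD3#1 value is the lower one, from Otog with a difference of −4.27 to Tgfb3 with −0.64, and in 7 it is the higher one, up to Wnt6 with 1.71.

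All 34 differences kept their sign in the 7 alternative settings and within the TRIzol and NucleoSpin libraries taken alone. These genes were picked by the same contrast, and the settings reuse its libraries. Kept signs were therefore likely from the start and are no independent support. In the fit blocked by replicate number 27 of the 34 stayed past the threshold, and the adjusted p was 0.0112 for Otog, 0.0108 for Mylpf, 0.0137 for Pip4k2a, 0.012 for Tgfb3, 0.0111 for Fhl2, 0.0111 for Loxl4 and 0.0117 for Abcb1b. Without the extraction term only 2 of the 34 were called.

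The second siRNA gave a response of similar order, with fewer calls. Between 0 h and 24 h 3004 genes were called under siSMYD3#2, against 4016 under siSMYD3#1. Among the 1046 genes that at least doubled in siCtrl, the median log2 change was 1.30 under siSMYD3#1 and 1.21 under siSMYD3#2, and among the 534 that at least halved it was −1.02 and −0.87. The thick filament medians were 1.89 and 2.27, those of excitation-contraction coupling 0.90 and 0.83, those of DNA replication −1.10 and −0.76, and those of collagens and matrix 0.67 and 0.23. Tested directly by edgeR, the change under siSMYD3#1 differed from that under siSMYD3#2 for 0 genes (0%), with 961 at an unadjusted p under 0.05 and 22 called by DESeq2. A test that misses the threshold does not show that the 2 siRNAs act alike. Myog rose by 4.15 ± 0.42 under siSMYD3#1 and 5.65 ± 0.39 under siSMYD3#2 (difference -1.50 ± 0.65 (SE, adjusted p = 0.795)), Ryr1 by 1.39 ± 0.24 and 2.70 ± 0.23 (difference -1.31 ± 0.33 (SE, adjusted p = 0.282)), and Wnt6 changed by 2.09 ± 0.18 and 0.23 ± 0.18 (difference 1.86 ± 0.25 (SE, adjusted p = 0.0108)). Col1a1 changed by 1.63 ± 0.27 and 0.23 ± 0.27 (difference 1.40 ± 0.38 (SE, adjusted p = 0.409)).

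The cells carried myoblast markers throughout. Summed over 7 markers (Myod1, Myf5, Des, Cdh15, Pax7, Vcam1 and Itga7), levels were 372 to 1520 CPM at 0 h and 585 to 2410 CPM at 24 h under siSMYD3#1, the TRIzol library being the lowest in each group. Des supplied most of this sum in the NucleoSpin libraries (905 to 1510 CPM), and Pax7 was at most 1.59 CPM. Myod1 was 4.67 and 4.97 CPM in the TRIzol libraries. Endothelial markers summed to at most 1.98 CPM and leukocyte markers to at most 5.38 CPM, with 3 of 5 at 3 counts or fewer in all 6 libraries for both. Osteoblast markers summed to 57.4 to 88.8 CPM, mostly from Runx2. Chondrocyte markers summed to 40.3 to 62.3 CPM, mostly from Sox9, and adipocyte markers to 13.6 to 28.6 CPM. Smooth muscle markers summed to 940 to 3010 CPM at 0 h and 1630 to 5040 CPM at 24 h, against 829 to 2320 CPM and 1920 to 4040 CPM in siCtrl, and their part in the results was not tested. Acta2 supplied most of the smooth muscle sum under siSMYD3#1 (831 to 4800 CPM), and Myh11 was at most 0.263 CPM.

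The promoters of Myog and Myh3, whose inductions were the most prominent of the factors and of the sarcomere genes, and of Rsad2, an interferon-induced gene with the most positive difference among the genes described (2.55 ± 1.23, not called, and at 3 counts or fewer in the 0 h libraries of siSMYD3#1), are shown as the 250 bases before the RefSeq start on GRCm38.p6. Capitals mark E-boxes (CANNTG).
Myog, chr1:134289754-134290003, plus strand: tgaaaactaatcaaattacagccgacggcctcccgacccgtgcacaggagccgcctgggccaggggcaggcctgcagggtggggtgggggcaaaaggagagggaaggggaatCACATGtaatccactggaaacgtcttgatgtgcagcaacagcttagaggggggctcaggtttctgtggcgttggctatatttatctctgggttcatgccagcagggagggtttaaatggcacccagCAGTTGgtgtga
Myh3, chr11:67078050-67078299, plus strand: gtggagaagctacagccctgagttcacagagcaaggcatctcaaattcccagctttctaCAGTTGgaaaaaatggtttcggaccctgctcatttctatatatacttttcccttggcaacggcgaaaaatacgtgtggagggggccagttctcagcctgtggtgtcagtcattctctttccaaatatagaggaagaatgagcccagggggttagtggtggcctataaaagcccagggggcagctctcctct
Rsad2, chr12:26456453-26456702, minus strand: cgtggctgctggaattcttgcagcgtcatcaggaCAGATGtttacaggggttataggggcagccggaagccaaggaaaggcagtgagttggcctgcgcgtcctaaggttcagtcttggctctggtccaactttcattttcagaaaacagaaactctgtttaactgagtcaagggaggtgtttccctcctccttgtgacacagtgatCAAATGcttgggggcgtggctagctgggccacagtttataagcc
Myog has E-boxes 138 to 133 and 12 to 7 bases before its start, Myh3 has 1 at 191 to 186, and Rsad2 has 2, at 216 to 211 and 44 to 39. CANNTG, searched on both strands, is present in 66% of 27025 promoters of this length, and its form CAGCTG in 12.8%. None of the 3 promoters held CAGCTG in this window. A comparison between genes with smaller and with similar responses was not made, and only 10522 of the 15820 genes tested (66.5%) have an entry. A match describes letters and not a bound site.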

How the data were processed

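Polyadenylated RNA of C2C12 cultures was sequenced by the authors as stranded paired-end libraries. Per the labels and the submitters' processing notes, reads were aligned to GRCm38 with HISAT2 2.1.0 after FastQC 0.11.5 and counted per gene with featureCounts of Subread 1.6.3, and the authors deposited raw counts without normalization. The strand and multiple-mapping settings and the annotation release are not given in the sources used here. Of 161 genes described or tabulated, 9 share exon bases with another gene on their strand and 46 with one on the opposite strand, so that their counts are less certain. Among those with values above, Nav2 is of the first kind.

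Groups came from the sample labels. Gene symbols and coordinates came from GENCODE M21 (54409 of 55341 identifiers matched), siRNA sequences from the study's oligonucleotide list, and promoters from RefSeq. Counts of the 18 siRNA libraries were fitted in R 4.3.3 with edgeR 4.0.16 (filterByExpr, TMM, robust quasi-likelihood test, 6 groups plus extraction), with Benjamini-Hochberg adjustment over 15820 genes and a threshold of 0.01. The difference between responses is a contrast of the same fit, and its 95% interval is 2.20 SE either way, from 11 residual degrees of freedom. The floor was 3 counts per library, and a group was at it when no library had more. Within-extraction values are differences of mean log2(CPM + 0.1). The common dispersion was 0.0159, and 0 of 153 pairs of libraries held identical values. Floors cover counting error only, and intervals include the spread between libraries. The fits were tested on counts simulated with a fixed dispersion and no extraction effect. That test therefore does not cover the adjustment for extraction.

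Genes were named by a rule. It took Smyd3, Smyd1, the MyoD family, the MEF2 genes, Mymk, Mymx, Cdkn1a, Cdkn1c and Igf2. From each list it took up to 4 tested members with the largest change in siCtrl and up to 2 with the largest difference. It took the 8 largest rises and falls under siSMYD3#1 and the 8 most negative and most positive called differences, with a mean of at least 100 counts (for rises and falls also with 0 h and 24 h libraries that did not overlap), and up to 10 genes called in opposite directions. Cavin2, Ppfia4, Tnni1, Fmo1, Pip4k2a, Trim54, Parm1, Iffo1, Tnnt1, Otog, Ank1, Tmem38a, Tgfb3 and Srl are named because their difference was called. The members and gene lists were chosen with earlier results of these data known.

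The study's sample table gives replicate numbers, with 1 culture passage for the TRIzol replicate and another for both NucleoSpin replicates. Same-numbered libraries deviated together from their group means (correlations of 0.366 to 0.849 across genes), though within NucleoSpin libraries alone only by −0.0193 to 0.101, and the fit with the replicate number as a block was run beside the fit without it. DESeq2 1.42.0, other scaling, no filter, no extraction term, NucleoSpin libraries alone, 2 siRNAs alone, other thresholds and leaving out each library were the alternatives.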

Additional observations from a re-analysis of the deposited data

Results flagged for a closer look

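The response to differentiation medium differed between siSMYD3#1 and siCtrl by the test of the difference in 34 genes, and each is given here as log2 change under siSMYD3#1 minus log2 change in siCtrl. Among sarcomere genes the differences were -3.15 for Mylpf, -2.92 for Tnnc1, -2.89 for Tnnt3, -2.75 for Tnni1, -1.93 for Tnnt1, -2.91 for Klhl41 and -2.15 for Trim54. Among genes of calcium handling they were -3.57 for Casq2, -3.29 for Ryr1, -2.63 for Atp2a1, -2.29 for Srl and -1.55 for Tmem38a. At the cell surface they were -3.91 for Mymk, -2.07 for Chrng, -1.35 for Lama2, -1.40 for Cavin2, -1.97 for Parm1 and -1.46 for Ank1. Among regulators and signalling genes they were -3.09 for Sox8, -1.61 for Hey1, -0.64 for Tgfb3, -1.01 for Pip4k2a, 0.67 for Fhl2, 0.85 for Nuak2 and 1.71 for Wnt6. The remaining values were -4.27 for Otog, -2.96 for Cpa1, -2.63 for Ppfia4, -1.91 for Fmo1, -1.21 for Iffo1, 0.89 for Loxl4, 0.90 for Gm6166, 0.90 for Abcb1b and 1.22 for Fam131b. For Hey1 a negative value is a larger fall under siSMYD3#1, and for Gm6166 and Abcb1b a positive value is a smaller fall.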

How the results depend on the processing

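For the numbers of called changes under siSMYD3#1 (4016), in siCtrl (4655), of called differences between them (34), of differences from siSMYD3#2 (0), of responses called in both without a called difference (3120) and of siCtrl responses lost, reduced or opposite (32), the values below moved by over 1.5 times. DESeq2 gave 141 differences, 22 from siSMYD3#2 and 120 lost or reduced. No filter on low counts gave 277, 123 and 201, NucleoSpin libraries alone gave 160, 70 and 115, and an adjusted p under 0.05 gave 105, 6 and 94 with 6043 changes under siSMYD3#1. Requiring a doubling or halving left 1117 changes under siSMYD3#1, 1580 in siCtrl and 792 called in both. Without the extraction term there were 1053, 1676, 2 differences, 875 called in both and 2 lost or reduced. The causes were not tested, apart from the doubling, the looser threshold and the smaller number of libraries, which are what those settings change. In the fit blocked by replicate number the 6 counts were 3798, 4457, 27, 0, 2953 and 26, and the block moved none of them by over 1.5 times. It changed no call of a gene described above other than those given beside their results and 1 change that passed only with the block. RLE scaling and the 2 siRNAs alone moved no count by over 1.5 times.

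Leaving out each library in turn gave 2649 to 4567 changes under siSMYD3#1, 3583 to 5028 in siCtrl, 17 to 78 differences, 0 to 9 from siSMYD3#2, 2265 to 3329 called in both and 16 to 69 lost or reduced. The 9 differences from siSMYD3#2 came without the TRIzol library of siSMYD3#1 at 24 h, and 3 without that of siSMYD3#2. No called change of a gene described above reversed under the alternatives run. With NucleoSpin libraries alone the cholesterol median under siSMYD3#1 went from 0.299 to −0.162 and its median difference from 0.202 to −0.0583, the ER stress median from −0.137 to 0.0367, and the DNA replication median difference from 0.192 to −0.00755. Depth limited genes at the floor of 3 counts, such as Ckm at 0 h, to a lower bound of their change.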
